A study of Homo sapiens with 6 samples.

Results

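The genes described here are 37 genes of glycolysis and of the hypoxia response. They were taken by gene symbol from a table of 23754 features measured in human lung fibroblasts with and without knockdown of the zinc finger factor ZNF469. All 37 symbols were found once in the table. The cells were IMR-90, an established line of human fetal lung fibroblasts, transduced with a Tet-pLKO-puro lentivirus that carries the hairpin named sh-2 against ZNF469 and selected with puromycin. In the DOX+ group, 3 libraries came from cells given 2 µg/mL doxycycline for 4 days to induce the hairpin. The 3 libraries of the DOX- group came from cells without doxycycline (0 µg/mL). The labels call the control genotype wild-type, whereas the methods describe the same transduced line without induction, and the latter description was used. Only 1 hairpin in 1 line was sequenced, and every DOX+ library had both doxycycline and the induced hairpin, so their effects cannot be told apart. The submitted design calls the libraries technical replicates, so p-values measure only the spread between these libraries.

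Glycolysis splits glucose into pyruvate in the cytosol and yields ATP without oxygen. When oxygen is scarce, the prolyl hydroxylases of the EGLN family no longer mark the alpha subunits HIF1A and EPAS1 for destruction, and these factors then raise the transcription of glucose carriers, glycolytic enzymes, lactate dehydrogenase A and a set of genes for pH control, blood vessel growth and mitochondrial turnover. HIF alpha proteins are controlled mainly by their stability, so the level of HIF1A or EPAS1 RNA is not a measure of their activity. Lung fibroblasts in culture draw heavily on glycolysis, and glycolytic carbon also feeds the serine, glycine and proline that collagen needs.

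The libraries held 34057675 to 36120260 counts each, and their scaling factors ranged from 0.988 to 1.01. Levels are given below as CPM, the counts scaled to a common library size, or, where genes are compared with each other, as the deposited FPKM (fragments scaled by transcript length and library total), which allow genes of unequal length to be set side by side. ZNF469 itself was at 119 ± 7.25 CPM (SD, n = 3) in DOX- and 80.1 ± 0.488 CPM (SD, n = 3) in DOX+ libraries, a log2 fold change of −0.57 (standard error 0.0477). The quasi-likelihood test of edgeR, with p adjusted over all features tested after Benjamini and Hochberg, gave an adjusted p of 3.31e-05, and no library went against its label. DOX+ replicate 2 stood apart on the first principal component, where it scored 32.8 and the other libraries lay between −12.6 and 0.524. Among the members, values without this library are also given for PFKP, PGAM1, GAPDH, PKM, LDHA, SLC16A3, PDK1, HIF1A and BNIP3L. All 11 fibroblast markers exceeded 1 CPM, with a summed level of 36852 to 37975 CPM in DOX- and 27482 to 28377 CPM in DOX+ libraries, and 5 of them, all collagen or proteoglycan genes, fell. The summed levels of the markers of other cells overlapped between the groups. They were low for endothelial (20.1 to 24.4 and 20.6 to 24.0 CPM), immune (60.7 to 66.8 and 59.1 to 65.3 CPM), epithelial (10.8 to 12.2 and 10.1 to 13.6 CPM) and packaging-line genes (1.34 to 1.65 and 1.32 to 1.52 CPM), and higher for muscle or pericyte genes (1165 to 1198 and 1158 to 1248 CPM), of which 5 of 6 exceeded 1 CPM. Of these lists, 3 of 7 endothelial, 5 of 10 epithelial and 4 of 7 immune genes were at 0 in all 6 libraries. Among them were PECAM1 and CDH5 of endothelium, SFTPC and NKX2-1 of lung epithelium, and CD3E of T cells. TEK of the endothelial, CLDN4 and MUC1 of the epithelial and CD68 of the immune list had a mean over 1 CPM. The part of the lower collagen counts in the results below was not tested. In bulk RNA, fewer cells that express a gene and less RNA per cell cannot be told apart.

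Knockdown of ZNF469 left the glycolysis and hypoxia genes close to their control levels. LDHA, which makes lactate from pyruvate, and PGAM1, the phosphoglycerate mutase, were higher by 10.4% and 12.9% by counts and passed the test. By the deposited FPKM, LDHA was less far apart (a log2 ratio of 0.050 against 0.14 by counts) and its groups overlapped. These are 2 of the 36 members with enough counts to be tested. Of all 13991 features tested, 1.12% were called, 56 higher (0.400%) and 100 lower (0.715%), and no member was among the lower ones. By DESeq2, an alternative count test, 6 members were called higher and 2 lower, of 33 to which it gave an adjusted p. Of the 7964 features to which it gave an adjusted p, it called 3.06% higher and 2.94% lower. The number with an unadjusted p under 0.05 was 13 of 36, and over all features it was 2099, or 15.0%. The log2 fold changes of the 36 members ran from −0.20 to 0.33, with a median of 0.024 beside −0.0019 over all features, and 21 lay above 0 and 15 below. The 95% interval of 24 members lay wholly between −0.2 and 0.2, and that of 23 members included 0. No member had an absolute log2 fold change over 0.5, whereas the study's own criterion asks for more than 1. In edgeR's fit, 6 features of the table met this together with an FDR (the adjusted p) under 0.05. The paper, which names no test, reports far more genes past these thresholds in each direction. The source of that difference was not tested. The groups did not overlap for 13 of 36 members, 8 higher and 5 lower in DOX+, and over all features such a gap was present in 20.3%, with 9.73% higher and 10.6% lower.

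**Figure D1:**
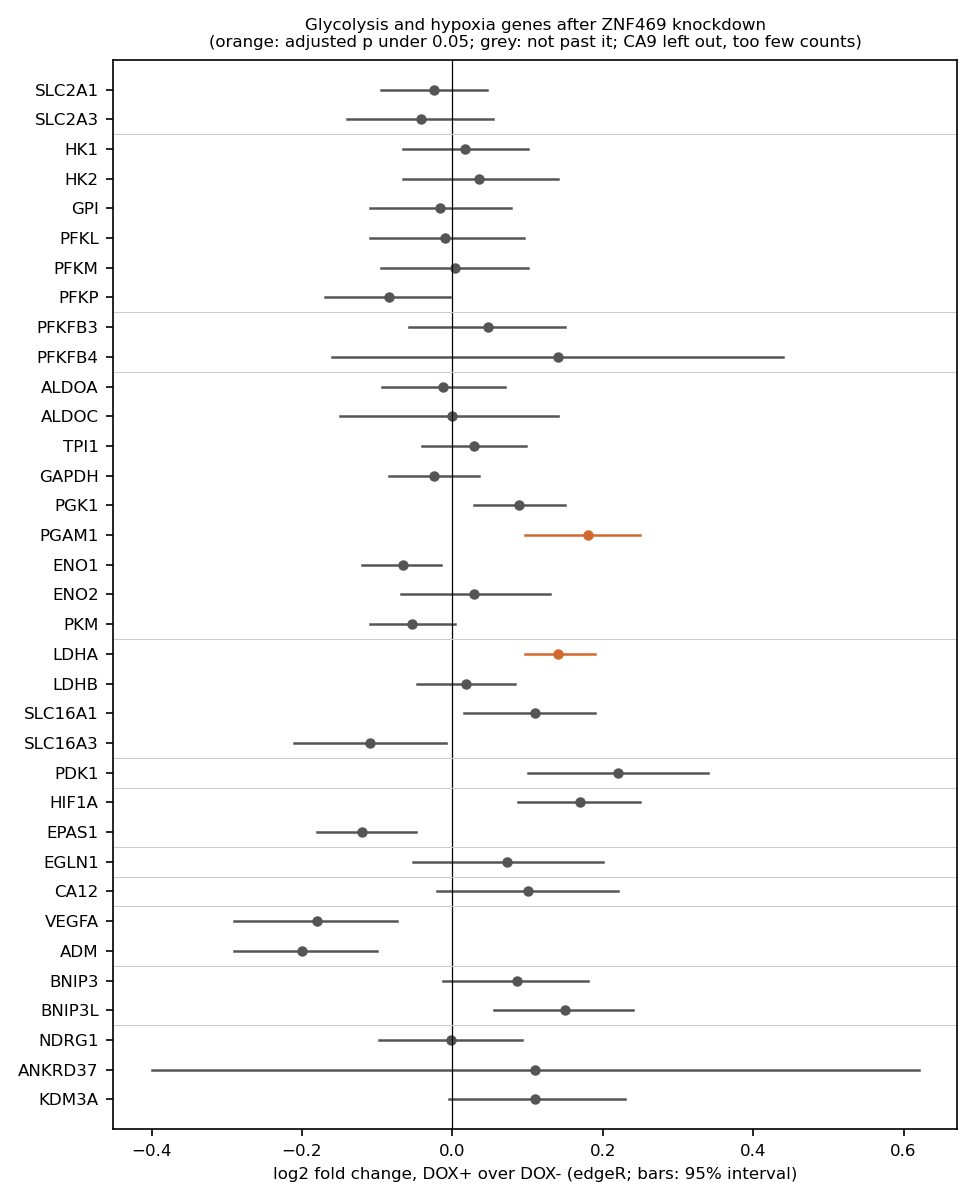
Log2 fold change of DOX+ over DOX- libraries (x axis) for each gene (y axis, grouped by role), with bars for the 95% interval of edgeR's fit on 3 against 3 libraries; orange marks an adjusted p under 0.05, and CA9 is left out for its few counts. LDHA at 0.14 and PGAM1 at 0.18 are the coloured genes, most other points lie between −0.1 and 0.1, and ADM at −0.20 and PDK1 at 0.22 are the outermost points on either side.

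HIF proteins with their partner ARNT bind a short core, the hypoxia response element, read as ACGTG or GCGTG. Windows from 250 bases before to 50 bases after each RefSeq transcript start (GRCh38.p14) were searched for both forms on both strands; the palindrome CACGTG, which is also the E-box bound by MYC and related factors, then counts on each strand. No window was available for SLC2A3, SLC16A1, VEGFA, BNIP3L and NDRG1, so their starts were not searched. Of 60 windows of 32 members, 22 held ACGTG (36.7%), beside 21.4% of all 35116 windows and 25.1% of the 14803 windows of tested genes. At least 1 ACGTG stood near a start of 18 of these 32 members, and either form near a start of 30. Of the 10099 tested genes with a window, 3252 had ACGTG and 7112 had either form. By windows, either form was in 68.3% of those of members and 60.5% of those of tested genes. Windows with at least 3 matches of ACGTG made up 8.33% of the members' windows and 2.74% of those of tested genes, and belonged to LDHA, PGK1, HK2, ALDOC and ANKRD37. The windows of PGAM1 held neither form. Windows of 1 gene can overlap, so these shares describe windows, not independent promoters, and a match is not a bound site. The stretches below are shown because LDHA was called, PGK1 stands beside it among the glycolytic enzymes with several cores, and HIF1A and ADM are the factor and the secreted target closest to the threshold in either direction. Capitals mark the cores on either strand, and positions count from the first transcribed base as 0. The LDHA stretch is chr11:18394363-18394512 (−200 to −51), the PGK1 stretch chrX:78103998-78104098 (−250 to −150), the HIF1A stretch chr14:61695263-61695363 (−250 to −150) and the ADM stretch chr11:10304923-10305022 (−150 to −51), all on the + strand.
LDHA: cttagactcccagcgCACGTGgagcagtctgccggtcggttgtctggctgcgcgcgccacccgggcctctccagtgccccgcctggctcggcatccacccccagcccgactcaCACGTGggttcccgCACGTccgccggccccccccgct
PGK1: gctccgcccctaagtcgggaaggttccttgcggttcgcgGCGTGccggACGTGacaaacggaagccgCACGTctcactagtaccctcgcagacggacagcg
HIF1A: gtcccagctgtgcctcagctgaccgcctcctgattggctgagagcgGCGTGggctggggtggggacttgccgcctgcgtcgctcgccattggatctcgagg
ADM: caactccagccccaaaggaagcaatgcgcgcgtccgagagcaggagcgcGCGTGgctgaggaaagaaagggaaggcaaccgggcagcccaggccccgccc

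**Figure D2:**
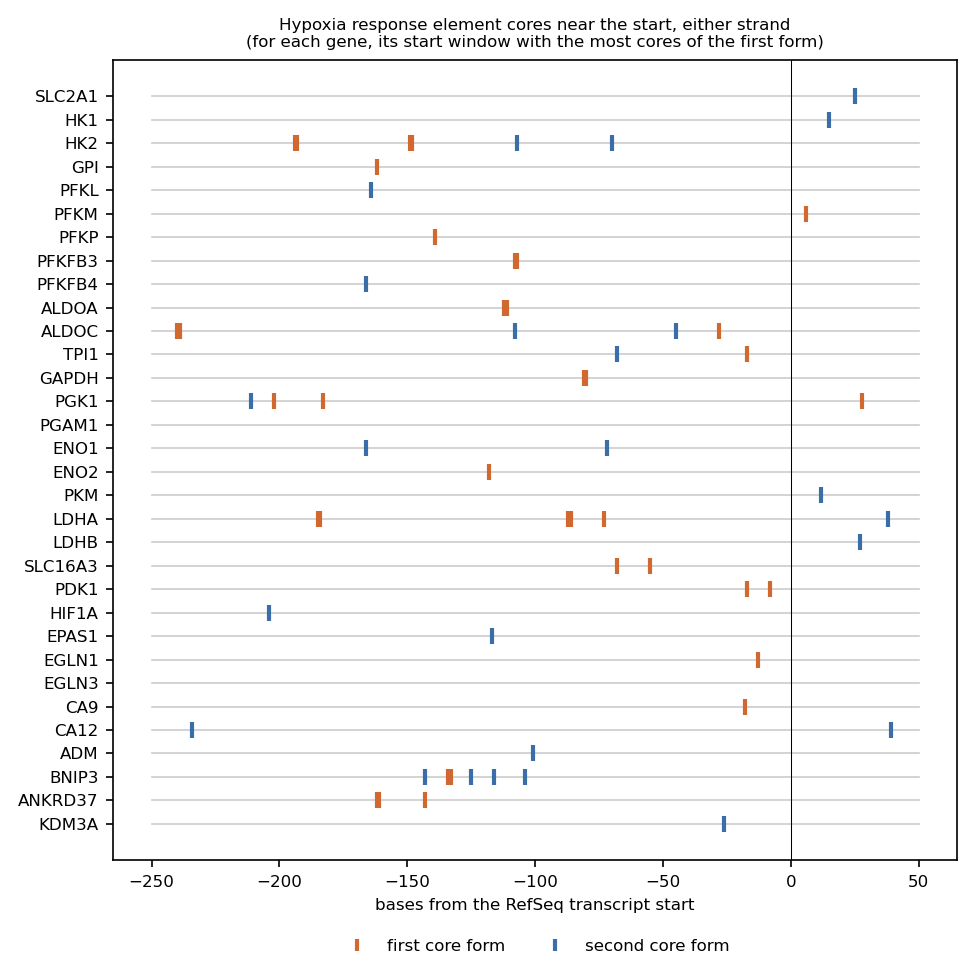
Positions of hypoxia response element cores (x axis, bases from the RefSeq transcript start; 250 before to 50 after) for 32 genes (y axis), each in its window with the most matches of the first form; orange ticks are the first core form named in the text (A first) and blue ticks the second (G first). The LDHA, PGK1, HK2 and ALDOC windows hold several orange ticks, and the PGAM1 and EGLN3 windows hold no tick.

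SLC2A1 (GLUT1) and SLC2A3 (GLUT3) carry glucose across the plasma membrane down its gradient, and neither was called. SLC2A1 was at 339, 338 and 349 CPM in DOX- replicates 1, 2 and 3 and at 342, 330 and 336 CPM in the DOX+ replicates, and the groups overlapped. Its log2 fold change of −0.024 had a 95% interval of −0.095 to 0.046. SLC2A3 had −0.042 with an interval of −0.14 to 0.054. By FPKM, SLC2A1 made up 79.8% of the pair in DOX- and 80.0% in DOX+ libraries.

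The 6 genes of the preparatory steps, from hexokinase to phosphofructokinase, held 0 calls by edgeR's test or DESeq2. Of them, 1 had an unadjusted p under 0.05, beside 15.0% of all features. The hexokinases HK1 and HK2, which trap glucose as glucose 6-phosphate, had log2 fold changes of 0.017 and 0.036, and HK1 made up 88.1% of their FPKM in DOX- and 87.9% in DOX+ libraries. GPI, the isomerase that makes fructose 6-phosphate, had −0.017. Among the phosphofructokinases, which catalyse the committed step, PFKL had −0.0098 and PFKM 0.0037. The platelet-type enzyme PFKP was at 415, 412 and 445 CPM in DOX- and 403, 387 and 409 CPM in DOX+ replicates. Every DOX+ library was thus below every DOX- library, by a margin smaller than the spread within each group, and the log2 fold change of −0.084 (standard error 0.0375) did not pass the test (adjusted p = 0.314 by edgeR's quasi-likelihood test). Its share of the 3 enzymes' FPKM was 68.4% ± 0.201 in DOX- and 67.0% ± 0.280 in DOX+ (SD, n = 3), again without overlap, though by FPKM the PFKP level itself overlapped. With the GC trend of the counts removed, PFKP had −0.033, and without DOX+ replicate 2 it had −0.061. PFKFB3 and PFKFB4, which set the level of the allosteric activator fructose 2,6-bisphosphate, had log2 fold changes of 0.047 and 0.14. The interval of PFKFB4, a gene of about 6 CPM (5.72 in DOX- and 6.29 in DOX+), ran from −0.16 to 0.44, so a moderate change in either direction was not detectable at this depth.

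In lower glycolysis the called gene was PGAM1, which moves the phosphate of 3-phosphoglycerate to make 2-phosphoglycerate. PGAM1 (ENSG00000171314, chr10:97426191-97433444) was at 471, 486 and 474 CPM in DOX- and at 514, 538 and 564 CPM in DOX+ replicates. All DOX+ libraries lay above all DOX- libraries. The means were 477 ± 8.04 and 539 ± 25.4 CPM (SD, n = 3), the log2 fold change was 0.18 (standard error 0.0364; 95% interval 0.097 to 0.25), and edgeR's quasi-likelihood test gave an adjusted p of 0.0376. A two-sided exact permutation test of this gene gave p = 0.1, the smallest value that 3 against 3 libraries allow. Leaving out 1 library kept the direction but lost the call in 5 of 6 fits: the adjusted p by edgeR's test was 0.168, 0.0759 and 0.151 without DOX- replicates 1, 2 and 3, 0.0648 and 0.0830 without DOX+ replicates 2 and 3, and 0.0419 without DOX+ replicate 1. PGAM1 has near-identical copies, among them PGAM4, an intronless gene inside PGK1. A locus without an Ensembl identifier, whose best match in the authors' annotation is PGAM1, held 1671, 1144 and 1447 counts in DOX- and 1789, 1281 and 660 counts in DOX+ replicates. Its low value in DOX+ replicate 3 stood opposite the highest PGAM1 value, which was in the same library. With the counts of both added, the estimate was 0.15 on the log2 scale (standard error 0.0287; adjusted p = 0.0273 by edgeR's test).

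The other enzymes of lower glycolysis did not pass edgeR's test. PGK1, which makes the pathway's early ATP by substrate-level phosphorylation, was at 646, 644 and 638 CPM in DOX- and 697, 675 and 679 CPM in DOX+ replicates. The groups did not overlap, and the log2 fold change was 0.089 (95% interval 0.029 to 0.15; adjusted p = 0.157 by edgeR's test and 0.00792 by DESeq2). ENO1, the main enolase, was at 1740, 1713 and 1770 CPM in DOX- and 1674, 1629 and 1685 CPM in DOX+ replicates. The DOX+ libraries of this later step were the lower ones, with a log2 fold change of −0.066 (standard error 0.0236; adjusted p = 0.210 by edgeR's test). With the GC trend of the counts removed, PGK1 had 0.058 and ENO1 −0.032. The aldolases ALDOA and ALDOC had −0.012 and −5.6e-04, the isomerase TPI1 0.029 and the neuronal enolase ENO2 0.029. The pyruvate kinase gene PKM had −0.054 (−0.0084 with that trend removed and −0.024 without DOX+ replicate 2). GAPDH, often used as a reference gene, was at 6345, 6250 and 6521 CPM in DOX- and 6399, 5939 and 6458 CPM in DOX+ replicates. Its groups overlapped, its lowest value was in DOX+ replicate 2, and its log2 fold change was −0.024 (95% interval −0.084 to 0.035), or 0.014 without that library. Over the 17 glycolytic enzymes, lactate dehydrogenases included, the median log2 fold change was 0.0037, 9 lay above 0 and 8 below, and together they took 1.73% ± 0.0237 of all counts in DOX- and 1.75% ± 0.0466 in DOX+ libraries (SD, n = 3).

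**Figure D3:**
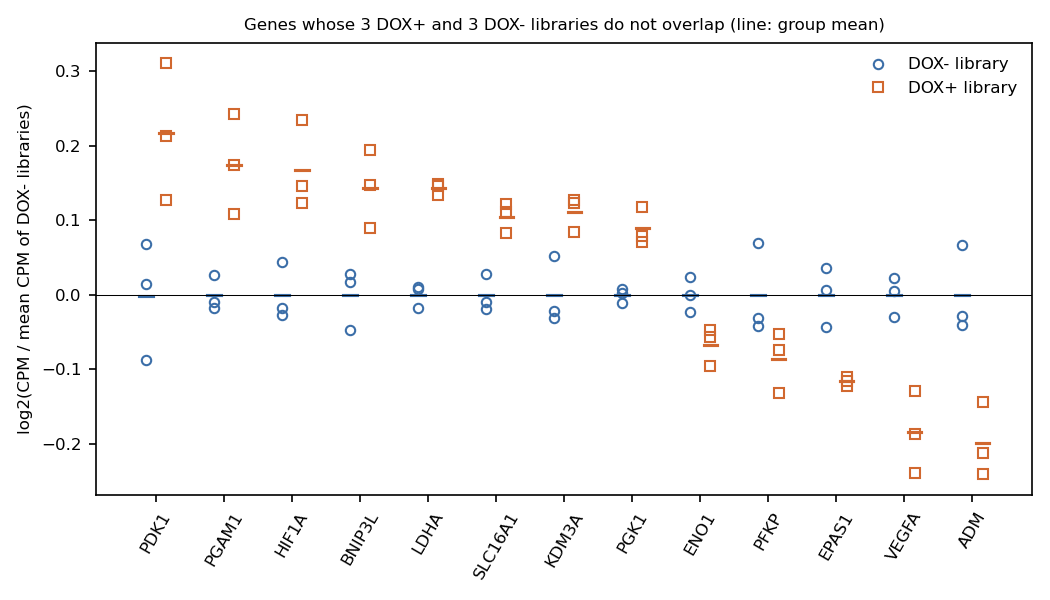
Level of each library relative to the mean DOX- CPM of the gene (y axis, log2) for the 13 genes whose 3 DOX- (circles) and 3 DOX+ libraries (squares) do not overlap, with a short line at each group mean. The LDHA libraries lie close together within each group, with DOX- at 1480 to 1509 CPM and DOX+ at 1645 to 1661 CPM, whereas the PDK1 libraries spread from 61.8 to 68.8 CPM and from 71.7 to 81.4 CPM.

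At the lactate step, LDHA rose by counts, whereas its FPKM overlapped between the groups. The gene (ENSG00000134333, chr11:18394560-18408425), whose product regenerates NAD+ by reducing pyruvate to lactate, was at 1509, 1507 and 1480 CPM in DOX- and at 1658, 1645 and 1661 CPM in DOX+ replicates. The libraries within a group differed little, and the gap between the groups was several times wider. The means were 1499 ± 16.4 and 1655 ± 8.51 CPM (SD, n = 3), with a log2 fold change of 0.14 (standard error 0.0220; 95% interval 0.096 to 0.19) and an adjusted p of 0.00557 by edgeR's quasi-likelihood test. The two-sided exact permutation p was 0.1, again the smallest possible. The call held in 15 of 16 alternative fits, 0.00570 by edgeR's test without DOX+ replicate 2 among them, and was lost without DOX+ replicate 1 (adjusted p = 0.0502). With the GC trend of the counts removed, the estimate was smaller, at 0.10 (adjusted p = 0.0132 by edgeR's test). An unannotated locus with LDHA as its best match held only 116 to 141 counts per library.

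LDHB, the isoform that favours pyruvate formation, was at 431, 425 and 440 CPM in DOX- and 437, 438 and 437 CPM in DOX+ replicates, with a log2 fold change of 0.018. Of the counts on both dehydrogenase genes, LDHA took 77.6% ± 0.481 in DOX- and 79.1% ± 0.106 in DOX+ libraries (SD, n = 3), without overlap. By FPKM this share was 70.2% and 70.0%, and the groups overlapped. The lactate exporters lay on opposite sides of 0 and did not pass the test. SLC16A1 (MCT1) was at 64.0, 62.4 and 62.0 CPM in DOX- and 68.3, 67.8 and 66.5 CPM in DOX+ replicates, so the groups did not overlap, with a log2 fold change of 0.11 (adjusted p = 0.247 by edgeR's test). SLC16A3 (MCT4), the hypoxia-responsive exporter and the source of 92.7% of the pair's FPKM in DOX- and 91.8% in DOX+ libraries, overlapped between the groups and had −0.11 (adjusted p = 0.292 by edgeR's test). With the trend of the counts on GC content removed, SLC16A1 was at 0.053 and SLC16A3 at −0.026. Without DOX+ replicate 2, SLC16A3 was at −0.066. SLC16A1 has an antisense gene, and as the kit does not mark strand, its reads cannot be told apart from those of SLC16A1.

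PDK1, the kinase that switches off pyruvate dehydrogenase and so keeps pyruvate out of the mitochondria, had the largest log2 fold change among members at over 10 CPM. It was at 66.3, 68.8 and 61.8 CPM in DOX- and at 76.1, 81.4 and 71.7 CPM in DOX+ replicates. The groups did not overlap, but each was widely spread. The log2 fold change of 0.22 (standard error 0.0549, 95% interval 0.10 to 0.34), or 16.4%, did not pass edgeR's quasi-likelihood test (adjusted p = 0.0810). It passed in 4 of 16 alternative fits, DESeq2 among them (adjusted p = 0.0130). Without DOX+ replicate 2 it was 0.17 (adjusted p = 0.239 by edgeR's test). With the GC trend of the counts removed, PDK1 had 0.16 and lay below PGAM1 at 0.20. With the length trend removed, PDK1 had 0.17 and PGAM1 0.21.

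The HIF alpha subunits lay on opposite sides of their control levels. Neither passed edgeR's test, whereas DESeq2 called both. HIF1A (ENSG00000100644, chr14:61695513-61748259), the subunit most tied to glycolytic genes, was at 355, 340 and 338 CPM in DOX- and at 381, 405 and 375 CPM in DOX+ replicates. Each DOX+ library exceeded each DOX- library. Its log2 fold change was 0.17 (standard error 0.0375; 95% interval 0.087 to 0.25), and its adjusted p of 0.0534 by edgeR's quasi-likelihood test was just short of the threshold. It passed in 8 of 16 alternative fits, DESeq2 among them (adjusted p = 1.74e-04). Without DOX+ replicate 2 it was 0.14 (adjusted p = 0.124 by edgeR's test), and with the GC trend removed 0.11 (adjusted p = 0.0489). EPAS1 (HIF-2 alpha) was at 481, 465 and 491 CPM in DOX- and 444, 440 and 442 CPM in DOX+ replicates, the reverse order without overlap. It had a log2 fold change of −0.12 (standard error 0.0313; adjusted p = 0.107 by edgeR's test and 0.00373 by DESeq2). Of the FPKM of both subunits, HIF1A made up 48.8% ± 0.982 in DOX- and 53.6% ± 1.09 in DOX+ libraries (SD, n = 3), without overlap. Antisense genes lie at HIF1A, and their reads cannot be told apart from its own without strand. Genes on the opposite strand also overlap other members, among them PDK1, ENO1, VEGFA, BNIP3, BNIP3L, PFKM and SLC16A3. The same limit applies to these.

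The prolyl hydroxylases that act on these subunits gave less to compare. EGLN1 (PHD2), the main oxygen sensor, was at 47.6 ± 2.84 CPM in DOX- and 50.1 ± 2.89 CPM in DOX+ libraries (SD, n = 3), with overlap and a log2 fold change of 0.073 (95% interval −0.052 to 0.20). EGLN3 (PHD3), which is strongly induced in hypoxia, had 10, 5 and 3 counts in DOX- and 10, 5 and 4 counts in DOX+ replicates and was the only member not tested. CA9, the carbonic anhydrase widely used as a hypoxia marker, was as sparse, at 16, 10 and 0 counts in DOX- and 12, 6 and 16 counts in DOX+ replicates. Its log2 fold change of 0.33 has a standard error of 0.773, so no difference was detectable at this depth. CA12, its relative in pH control, was at 31.5 ± 1.38 and 33.8 ± 1.07 CPM (SD, n = 3) and had 0.10 (adjusted p = 0.425 by edgeR's test).

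Both secreted targets lay lower in the DOX+ libraries without passing edgeR's test. ADM (chr11:10305073-10307397), the vasodilator adrenomedullin, was at 116, 125 and 117 CPM in DOX- and 108, 103 and 101 CPM in DOX+ replicates. Its groups did not overlap, and its log2 fold change of −0.20 (standard error 0.0444, 95% interval −0.29 to −0.10) had an adjusted p of 0.0556 by edgeR's quasi-likelihood test. DESeq2 called ADM lower, with an adjusted p of 0.00214. VEGFA, the main growth factor for blood vessels, was at 42.2, 40.7 and 41.7 CPM in DOX- and 38.0, 36.5 and 35.2 CPM in DOX+ replicates. These groups did not overlap either, with a log2 fold change of −0.18 (standard error 0.0506). The adjusted p of VEGFA was 0.114 by edgeR's test and 0.0914 by DESeq2.

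The mitophagy receptors BNIP3L and BNIP3, which tag mitochondria for removal, lay on the other side of 0. BNIP3L was at 138, 139 and 132 CPM in DOX- and 151, 156 and 145 CPM in DOX+ replicates, without overlap and with a log2 fold change of 0.15 (adjusted p = 0.126 by edgeR's test and 0.0174 by DESeq2). BNIP3 had 0.086 (adjusted p = 0.400 by edgeR's test), and its groups overlapped. With the GC trend removed, BNIP3L had 0.074 and BNIP3 0.047. Without DOX+ replicate 2, BNIP3L had 0.12. Among the remaining targets, the histone demethylase gene KDM3A was at 30.2, 31.8 and 30.0 CPM in DOX- and 33.4, 33.5 and 32.5 CPM in DOX+ replicates, apart but not called (0.11; adjusted p = 0.352 by edgeR's test). NDRG1, a stress-responsive gene induced by hypoxia in many cells, had −0.0021 with an interval of −0.097 to 0.092. ANKRD37, at 1.45 and 1.57 CPM, had 0.11 with an interval of −0.40 to 0.62. Over the 12 HIF targets outside glycolysis, PDK1 included, 11 were tested and 0 called by edgeR's test, with a median of 0.10. Of these, 4 had an unadjusted p under 0.05, beside 15.0% of all features. DESeq2 called PDK1 and BNIP3L higher and ADM lower, beside 3.06% higher and 2.94% lower over all features.

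Per transcript length, glycolytic enzymes were the most abundant members by a wide margin. GAPDH was at 3284 FPKM in DOX- and 3348 FPKM in DOX+ libraries, followed by PKM (1206 and 1189), ENO1 (876 and 857), ALDOA (707 and 712), LDHA (701 and 726) and TPI1 (569 and 565). ALDOA and LDHA overlapped in both groups and are not ordered by these data. PGAM1 stood at 234 and 272 FPKM, PGK1 at 118 and 129, and HIF1A and EPAS1 at 79.4 and 91.2 and at 83.4 and 79.0. CA9 and EGLN3 lay at the other end, with CA9 at 0.137 and 0.171 FPKM and EGLN3 at 0.0478 and 0.0548 FPKM.

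**Figure D4:**
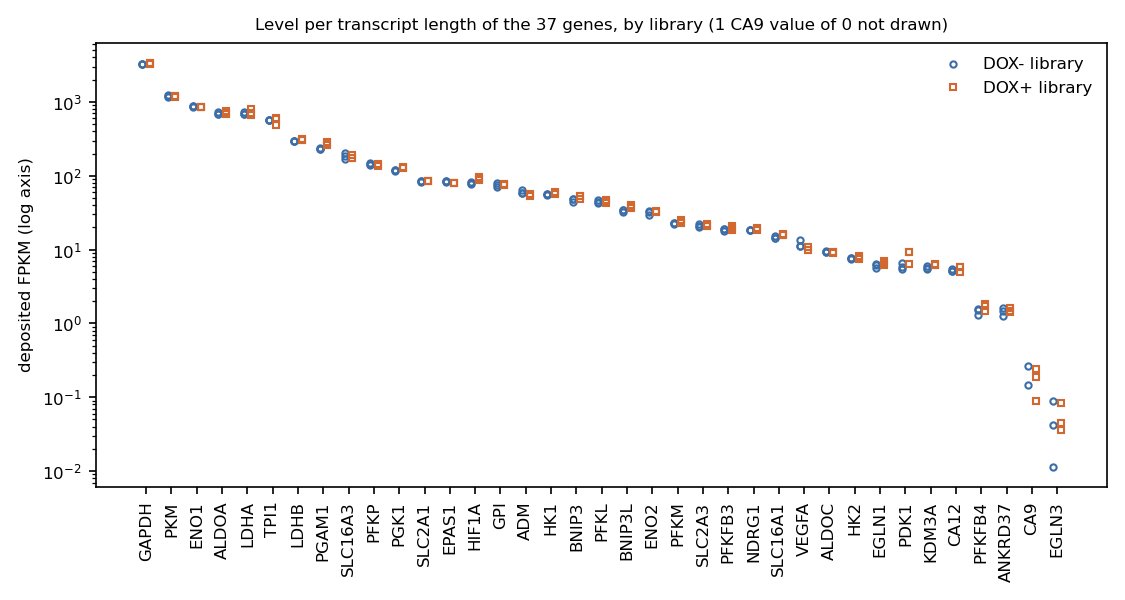
Deposited FPKM (y axis, log scale) of the 37 genes (x axis, ordered by the mean of the DOX- libraries) in each DOX- (circles) and DOX+ library (squares). The levels fall from GAPDH at 3284 FPKM to EGLN3 at 0.0478 FPKM in DOX- libraries, and the circles and squares of most genes lie on top of each other at this scale.

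The deposited FPKM values gave a different size for some members. Over all 13988 features with both ratios, the log2 ratio of FPKM exceeded that of CPM in 85.7%, by a median of 0.036, and the members had the same median offset. LDHA was at 731, 689 and 684 FPKM in DOX- and 810, 705 and 663 FPKM in DOX+ replicates. These groups overlapped, unlike its counts, and the log2 ratio of the means was 0.050 rather than 0.14. PGAM1 was at 233, 240 and 230 FPKM in DOX- and 257, 274 and 284 FPKM in DOX+ replicates, a log2 ratio of 0.21 without overlap. PDK1 was at 6.63, 5.78 and 5.54 FPKM in DOX- and 9.20, 9.41 and 6.36 FPKM in DOX+ replicates, a log2 ratio of 0.48 with overlap. HIF1A, PGK1, BNIP3L, KDM3A and SLC16A1 lay higher and EPAS1, VEGFA and ADM lower in DOX+ libraries on both scales, without overlap. PFKP and ENO1, apart by CPM, overlapped by FPKM, with log2 ratios of −0.049 and −0.031. The higher LDHA level in DOX+ libraries thus rests on the counts, and the source of the gap between the scales was not tested.

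**Figure D5:**
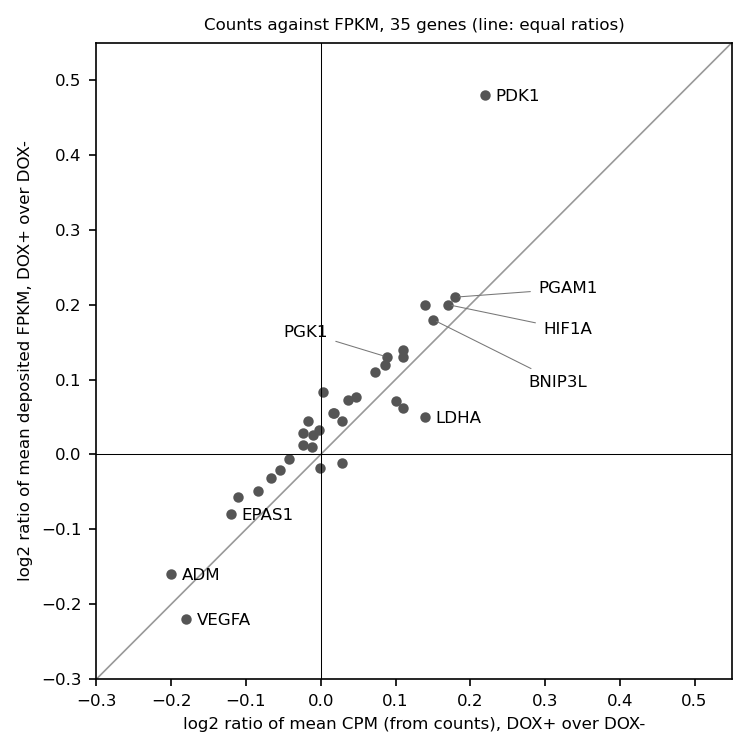
Log2 ratio of DOX+ over DOX- group means from deposited FPKM (y axis) against that from CPM (x axis) for 35 genes, with a line where both are equal; CA9 and EGLN3 are left out for their few counts. Most points lie slightly above the line, PDK1 lies well above it (0.48 by FPKM), and LDHA lies below it (0.050 by FPKM against 0.14).

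Further genes of these pathways, listed from general knowledge, were read in the same fit. Over all features, that fit called 0.400% higher and 0.715% lower. Of 27 other genes of glycolysis and gluconeogenesis, 13 were tested, 0 were called higher and 1 lower. This was PCK2, the mitochondrial phosphoenolpyruvate carboxykinase, which was at 26.6, 27.1 and 28.3 CPM in DOX- and 17.5, 15.5 and 17.7 CPM in DOX+ replicates. It fell by 38.2%, a log2 fold change of −0.69 (standard error 0.0715; adjusted p = 2.21e-04 by edgeR's quasi-likelihood test), and the call held in all 16 alternative fits. GLO1, which clears the glycolytic by-product methylglyoxal, followed it by p-value with 0.14 (adjusted p = 0.236 by edgeR's test). Of 12 tested genes for the entry of pyruvate into mitochondria, 0 were called by edgeR's test or DESeq2 and 0 had an unadjusted p under 0.05, and their median was 0.047. The lowest p-values there belonged to the pyruvate carrier subunit MPC2 (0.085) and the phosphatase gene PDP2 (−0.12). Of 17 tested regulators of HIF, 0 were called by edgeR's test and 1, lower, by DESeq2, 2 had an unadjusted p under 0.05, and the median was 0.015. Over all features, DESeq2 called 2.94% lower, and 15.0% had an unadjusted p under 0.05 by edgeR's test. The leading genes were CITED2, a competitor of HIF for its coactivator, at −0.13 (adjusted p = 0.0994), and the elongin B gene ELOB at −0.18 (adjusted p = 0.237), both by edgeR's test.

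Among 48 genes reported elsewhere as HIF targets, 44 were tested, 3 were called higher and 5 lower by edgeR's test (5 and 4 by DESeq2), with a median of 0.022. Over all features, edgeR called 0.400% higher and 0.715% lower, and DESeq2 3.06% and 2.94%. The higher ones included the collagen-modifying enzymes LOX (1456 to 1644 CPM; log2 fold change 0.18, adjusted p = 0.00531) and PLOD2 (159 to 189 CPM; 0.25, adjusted p = 0.0325), by edgeR's test. The lower ones were the transferrin receptor gene TFRC (253 to 194 CPM; −0.39, adjusted p = 1.71e-04), the mTORC1 inhibitor gene DDIT4 (32.7 to 22.2 CPM; −0.56, adjusted p = 0.00259) and the secreted glycoprotein gene STC2 (495 to 433 CPM; −0.19, adjusted p = 0.00687), by edgeR's test. VLDLR, a lipoprotein receptor gene (16.1 to 10.6 CPM; −0.60, adjusted p = 0.0102), and HMOX1, the heme oxygenase gene (41.4 to 33.0 CPM; −0.33, adjusted p = 0.0112), were also lower by edgeR's test. These genes are also regulated by other factors. The calls of LOX, TFRC and DDIT4 held in all 16 alternative fits. Leaving out single libraries ended the calls of the remaining genes named here by edgeR's test: STC2 without DOX+ replicate 1 (adjusted p = 0.0680), VLDLR without DOX- replicates 1 or 3 or DOX+ replicate 1 (up to 0.0793), HMOX1 without DOX- replicates 2 or 3 or DOX+ replicate 1 (up to 0.0700), and PLOD2 without DOX- replicates 1 or 3 or DOX+ replicates 1 or 2 (up to 0.164). Of the members often used as markers of low oxygen, CA9, EGLN3 and ANKRD37 stayed at or under a few CPM in both groups. Means of other HIF targets among the members were higher. In DOX- and DOX+ libraries, BNIP3 was at 150 and 160 CPM and ADM at 119 and 104 CPM. NDRG1 was at 61.5 and 61.4 CPM and VEGFA at 41.5 and 36.6 CPM.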

How the data were processed

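Poly(A) RNA of IMR-90 cells (3 DOX- and 3 DOX+ libraries) was sequenced in pairs of 150 bp reads after an unstranded NEBNext Ultra II preparation. The authors aligned quality-filtered reads to GRCh38 with HISAT2 and StringTie. Tool versions, the annotation release and the counting step are not given in the sources used here. The deposited counts are whole reads per gene without normalization, and the deposited FPKM values, made by the authors, served as levels per length and entered no test. Of 23754 features, 19974 had Ensembl identifiers and 3780 were unannotated loci; 17 stray lines were dropped. All per-sample columns were assigned to a sample.

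Counts were filtered with filterByExpr (minimum count 10), scaled by TMM and compared with edgeR 4.0.16 in R 4.3.3 by the quasi-likelihood test without covariates, with Benjamini-Hochberg adjustment over 13991 features and a call at an FDR under 0.05. A standard error is the size of the log2 fold change over the root of the F statistic. Permutation tests were exact and two-sided. On simulated counts of this comparison with 13858 genes tested, 69.4% of genes changed by a log2 fold of 0.5 and 88.5% of those changed by 1 were called, and 6.13% of calls were false; smaller changes were not simulated. No library was a copy of another: the chi-square of the counts over its degrees of freedom was 4.53 to 8.31 for libraries of the same group and 12.4 to 22.2 across groups. Same-numbered libraries did not deviate together (correlations −0.0241, −0.0352 and 0.0363), so the numbers were not taken as pairs.

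The members, the further gene lists and the tests were chosen with earlier results of these data known. The genes named are all 37 members, ZNF469 and, of each further list, the called genes and the 2 with the smallest p-value; the results of a few of these are not reported here, although they entered every test. Coordinates are from GENCODE 44 (GRCh38), which may not be the authors' release, and promoter windows from RefSeq GRCh38.p14. The alternatives were 2 other filters, library size and DESeq2 scaling, DESeq2 1.42.0, an FDR under 0.01, leaving out each library, a replicate block, removal of trends on length or GC content (lowess span 0.3), and a table without unannotated loci. Adding the unannotated copies of LDHA and PGAM1 was chosen after seeing the data.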

Additional observations from a re-analysis of the deposited data

How the results depend on the processing

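The calls were small in number and their count moved with the settings, while the median of the members stayed near 0. Against 56 features higher and 100 lower, with 2 members higher and 0 lower, keeping every feature with at least 1 count gave 127 and 163 features and 4 and 1 members; the replicate block gave 135 and 157 features and 4 (LDHA, PGAM1, HIF1A, PDK1) and 1 (ADM) members; removing the GC trend gave 127 and 163 features and a members' median of 0.051; library size scaling gave 88 features higher; DESeq2 gave 244 and 234 features and 6 and 2 members; and an FDR under 0.01 gave 19 and 54 features and 1 member higher. The block changed the calls of HIF1A, PDK1 and ADM and no other member's. Leaving out each library gave 20 to 69 features higher, 54 to 92 lower, 1 to 3 members higher, 0 lower and a median of 0.0061 to 0.030. Under library size scaling the median of all features was 0.019. Signs turned in members near 0 and in the sparse genes CA9 and ANKRD37. ALDOC was 7.3e-04 with every feature kept, 4.1e-04 with a CPM filter, 0.020 by library size, 0.0019 with DESeq2 factors, 5.6e-06 with the block, 0.039 without the length trend, 0.039 without the GC trend and 0.0022 by DESeq2. By library size, GPI was 0.0035, PFKL 0.011, ALDOA 0.0087 and NDRG1 0.018. Without the length trend, PFKL was 5.0e-04, ALDOA 0.026, NDRG1 0.0059 and GAPDH 0.024. Without the GC trend, GPI was 0.011, PFKL 0.066, ALDOA 0.051, NDRG1 0.035, GAPDH 0.018, SLC2A1 0.0050 and LDHB −0.0064. NDRG1 was 3.0e-04 with DESeq2 factors and 6.3e-04 by DESeq2. With a library left out, ALDOA ranged from −0.044 to 0.026, ALDOC from −0.028 to 0.029, ANKRD37 from −0.017 to 0.19, CA9 from −0.25 to 1.13, GAPDH from −0.046 to 0.014, GPI from −0.045 to 0.026, HK1 from −0.0073 to 0.046, NDRG1 from −0.025 to 0.025, PFKL from −0.036 to 0.033 and PFKM from −0.035 to 0.033. The cause of these shifts was not tested. Depth limits CA9, EGLN3, ANKRD37 and PFKFB4.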

Other observations

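Pathways that branch from glycolysis or feed it held no call by edgeR's test. Of 10 pentose phosphate genes, all tested, 0 were called by edgeR's quasi-likelihood test and 2, both lower, by DESeq2, and 4 had an unadjusted p under 0.05, with a median log2 fold change of −0.026. The groups did not overlap for 6 of them, 5 lower and 1 higher in DOX+ libraries. Over all features, 20.3% did not overlap, 10.6% lower and 9.73% higher. An unadjusted p under 0.05 was present in 15.0% of them, and DESeq2 called 2.94% lower. TKT, the transketolase that links this pathway to glycolysis, was at 298, 293 and 310 CPM in DOX- and 274, 261 and 274 CPM in DOX+ replicates, with −0.15 (standard error 0.0368; adjusted p = 0.0703 by edgeR's test). By CPM, every DOX+ library of TKT was below every DOX- library, whereas by FPKM its groups overlapped.

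Of 17 tested genes of glycogen metabolism, 0 were called by edgeR's test and 1, higher, by DESeq2, and 4 had an unadjusted p under 0.05, with a median of 0.036. Over all features, DESeq2 called 3.06% higher, and 15.0% had an unadjusted p under 0.05 by edgeR's test. PPP1R3C, which targets a phosphatase to glycogen and is also a known hypoxia-responsive gene, was at 45.8 ± 2.05 CPM in DOX- and 53.0 ± 2.04 CPM in DOX+ libraries (SD, n = 3), without overlap (0.21; adjusted p = 0.0734 by edgeR's test). The glycogenin gene GYG1 was at 98.8 and 92.4 CPM (−0.096; adjusted p = 0.265 by edgeR's test). Of 14 tested further carriers of sugars and monocarboxylates, 0 were called by edgeR's test or DESeq2 and 3 had an unadjusted p under 0.05, with a median of 0.020. The inositol carrier gene SLC5A3 (17.2 and 20.5 CPM) and the glucose carrier gene SLC2A12 (9.61 and 11.5 CPM) each had 0.26, with adjusted p-values of 0.210 and 0.269 by edgeR's test.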
